A study of Mus musculus with 6 samples.

Results

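Transcripts of 10 BCL2-family regulators of apoptosis were followed in mouse embryonic stem cells in which protein synthesis had been blocked with cycloheximide. The 10 genes were taken by symbol from a fixed list, which was chosen with earlier results of these data known. All 10 were found among the 17485 gene names in the count files. They were 4 pro-survival genes (Mcl1, Bcl2, Bcl2l1 and Bcl2l2) and 6 pro-death genes, of which Bax and Bak1 encode effectors and Bcl2l11, Bad, Bbc3 and Pmaip1 encode BH3-only proteins. All 10 passed the filter on low counts that left 12755 genes for testing.

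The cells were of the E14 line, a pluripotent embryonic stem cell line of 129/Ola background, kept in medium with serum and leukaemia inhibitory factor. Cycloheximide, which stops ribosomes during elongation, was given from 24 h after seeding, at 250 µg/mL with 0.007% ethanol as vehicle, and lasted 3 h or 6 h; the control cells had ethanol alone for 9 h. Because the control exposure was longer, drug and length of exposure to ethanol cannot be told apart. If every exposure began at 24 h, the groups also differed in time in culture at harvest. Each of the 3 groups had 2 libraries. The labels do not say whether the libraries of a group came from separate cultures, so the p-values measure the spread between these libraries, which may be technical.

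BCL2-family proteins decide whether the outer mitochondrial membrane stays intact. BAX and BAK1 oligomerise in that membrane and release cytochrome c, which activates the apoptosome and its caspases. MCL1, BCL2, BCL-xL (the long product of Bcl2l1) and BCL-w (the product of Bcl2l2) hold the effectors and the BH3-only proteins in check. BIM (Bcl2l11), BAD, PUMA (Bbc3) and NOXA (Pmaip1) bind into the groove of the pro-survival proteins, and NOXA binds MCL1 by preference. MCL1 is known as a short-lived protein whose level depends on continued translation. Only RNA was measured here, so nothing below speaks of protein amounts.

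Library totals ranged from 9385447 to 27351079 counts, and the libraries at 6 h were the deepest. Mitochondrial transcripts took 24.7% and 24.9% of the control counts, 19.6% and 18.9% of those at 3 h and 17.4% and 16.6% of those at 6 h. All 10 listed pluripotency markers were detected and tested; their summed level was 6942 to 7118 CPM (counts relative to the library total after TMM scaling, a correction for library composition) in control, 7962 to 8216 CPM at 3 h and 5539 to 5712 CPM at 6 h. Sox2 alone went from 2281 and 2601 CPM in control to 3847 and 3956 CPM at 3 h, which is more than the rise of the sum. At 3 h 2 of the 10 markers were called higher and 1 lower (3.60% and 1.30% of all genes). At 6 h 0 were called higher and 4 lower (14.8% and 14.3% of all genes). Of 13 listed markers of other cell types 12 were in the files, with summed levels of 30.0 to 32.0, 32.3 to 41.9 and 29.5 to 30.2 CPM in the same order. Col1a2, a fibroblast collagen gene, had 0 counts in every library but the first at 6 h, and Cdx2 held 0 to 3 counts per library. Other markers of that list were present in every library, among them Col1a1 (12 to 50 counts), Thy1 (40 to 127 counts) and Neurod1 (81 to 236 counts). The part of these shifts in the results was not tested, and in bulk RNA fewer cells of a kind cannot be told apart from less RNA per cell.

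Sequences upstream of the annotated start are shown because Mcl1 and Bax were the most abundant transcripts of the pro-survival and the pro-death genes. Each is the 250 bases before the RefSeq start site on GRCm38.p6, 5′ to 3′ on the gene's strand. Capitals mark matches, on either strand, to the GC box GGGCGG, the E-box CACGTG or the p53 decamer. The Mcl1 window lies at chr3:95658471-95658720 on the plus strand and the Bax window at chr7:45466899-45467148 on the minus strand.
Mcl1: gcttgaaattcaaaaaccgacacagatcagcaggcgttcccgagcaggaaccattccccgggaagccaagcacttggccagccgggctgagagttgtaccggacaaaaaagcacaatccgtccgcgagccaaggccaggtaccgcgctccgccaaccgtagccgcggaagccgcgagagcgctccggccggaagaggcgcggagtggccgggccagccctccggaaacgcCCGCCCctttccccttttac
Bax: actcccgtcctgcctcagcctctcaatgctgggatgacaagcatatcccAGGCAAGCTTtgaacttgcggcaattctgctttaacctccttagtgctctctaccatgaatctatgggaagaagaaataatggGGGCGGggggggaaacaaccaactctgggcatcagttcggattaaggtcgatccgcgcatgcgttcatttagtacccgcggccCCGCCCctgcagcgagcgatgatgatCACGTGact

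The Mcl1 window was 64.4% G or C and held 1 GC box. The Bax window was 54.0% G or C and held 2 GC boxes, an E-box and a p53 decamer. Among 32851 RefSeq windows of the same length, 32.7% held the GC box, 6.02% the E-box and 7.13% the p53 decamer. Searches on both strands for the cyclic-AMP response element TGACGTCA (1.55% of all windows), the AP-1 motif TGANTCA (6.75%) and the STAT motif TTCNNNGAA (7.02%) found none in the windows of the 9 members present in that table. A match describes letters in the window and not a bound site. Pmaip1 was the member with no window there.

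In control cells Mcl1 was by far the most abundant of the 10 transcripts per unit length. Its level was 187 CPM per kilobase of its principal GENCODE transcript, followed by Bax at 61.6 and Bcl2l1 at 26.2 CPM per kilobase. Bax ranged from 33.2 to 90.0 and Bcl2l1 from 21.6 to 30.9 CPM per kilobase in the 2 control libraries, and Bax was the higher of the pair in each. Bad (5.24), Bcl2l11 (4.26), Bak1 (3.71) and Bbc3 (3.62) formed a middle group, and the control range of Bad, 3.95 to 6.53 CPM per kilobase, overlapped those of Bcl2l11 and Bbc3. Pmaip1 (1.97), Bcl2l2 (1.17) and Bcl2 (0.135 CPM per kilobase) were lowest. Whether reads were spread along transcripts or came from their ends is not given in the sources used here, and in the latter case the order per transcript would follow CPM instead. By CPM Mcl1 was again first and Bcl2 last, but ranks between them changed. Bcl2l1 (79.2 and 55.6 CPM) was then above Bax (78.1 and 28.8 CPM) in each control library. The control mean of Bcl2l11 (21.5 CPM) was above that of Bad (7.61 CPM).

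**Figure D1:**
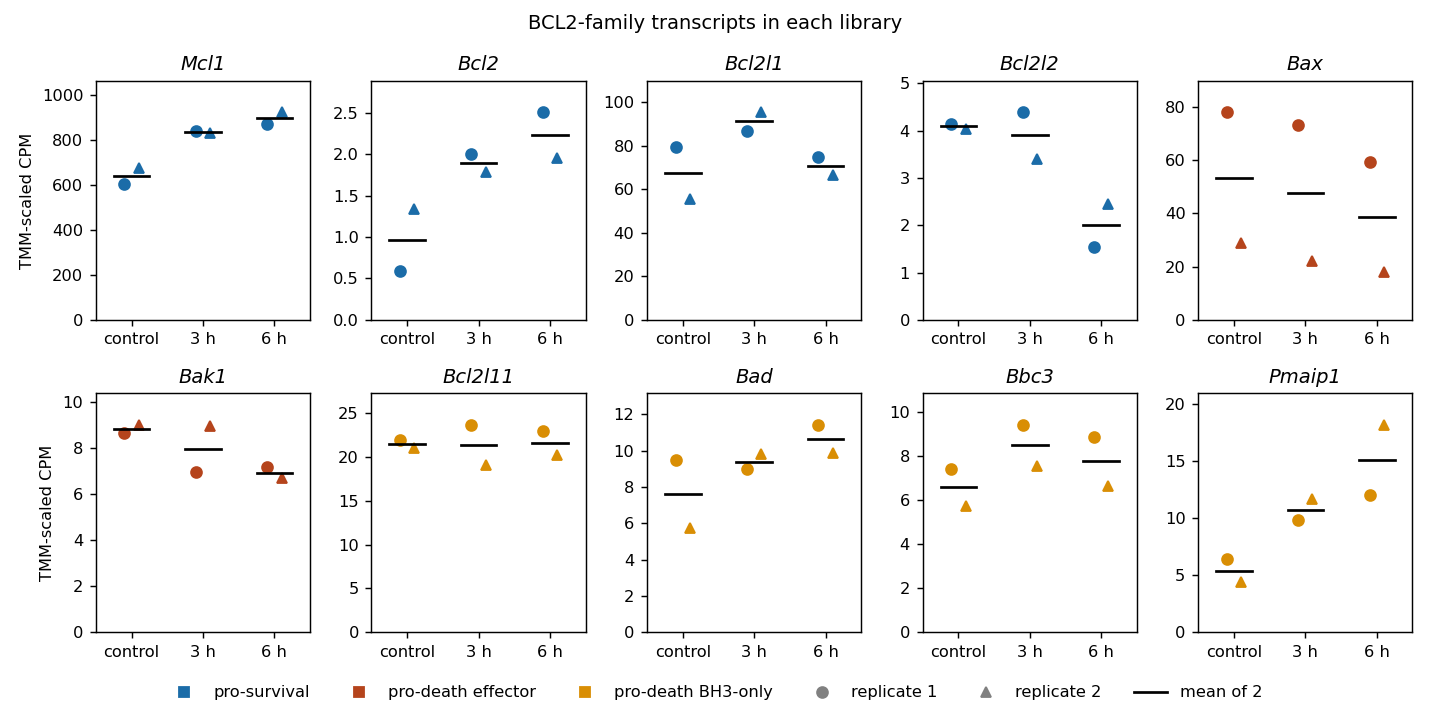
TMM-scaled CPM (linear axes from 0, a separate scale for each gene) of the 10 BCL2-family transcripts in control cells and after 3 h or 6 h of cycloheximide. Symbols are single libraries and bars are means of 2. The treated libraries of Mcl1, Bcl2 and Pmaip1 lie above both controls at both times, and the Bax libraries split by replicate number in every group.

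The comparison of treated with control cells asks which survival and death regulators change in RNA when translation stops. At 6 h, 2 of the 10 transcripts rose, the pro-survival Mcl1 and the pro-death Pmaip1, and 0 of 10 fell (edgeR quasi-likelihood test, Benjamini-Hochberg adjusted p under 0.05). Bcl2l2, which was lower, had an unadjusted p under 0.05, and DESeq2 and limma-voom also called 2 members. Among all 12755 genes tested, 29.0% were called changed at 6 h, 14.8% higher and 14.3% lower, so a count of 2 in 10 was not above the background. At 3 h, 0 of 10 were called, against 4.90% of all genes (3.60% higher and 1.30% lower); 3 members, Mcl1, Bcl2l1 and Pmaip1, had an unadjusted p under 0.05, while DESeq2 called 1 and limma-voom 0. Between 6 h and 3 h, 0 of 10 were called, against 1.64% of all genes (0.455% higher and 1.18% lower); Bcl2l2 alone had an unadjusted p under 0.05, and DESeq2 and limma-voom also called 0. The comparisons with control share the same 2 control libraries.

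The libraries of the groups compared did not overlap for 5 members at 3 h and 6 members at 6 h against control, and for 5 members between 6 h and 3 h. Over all tested genes the same was true of 53.2%, 66.8% and 54.1%. Over the 10 members the median log2 difference was 0.32 at 3 h and 0.15 at 6 h (0.41 and 0.28 for the pro-survival, 0.14 and 0.12 for the pro-death genes), beside 0.02 and 0.04 over all genes. Scaling by library size alone moved the median of all genes to 0.25 at 3 h and 0.40 at 6 h, and the share of called genes that were higher from 73.4% to 95.8% at 3 h, from 50.8% to 88.1% at 6 h and from 27.8% to 56.5% between the times. Member changes are given on the TMM scale. On that scale the median log2 change of all genes, regardless of sign, was 0.32 at 3 h and 0.47 at 6 h against control.

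**Figure D2:**
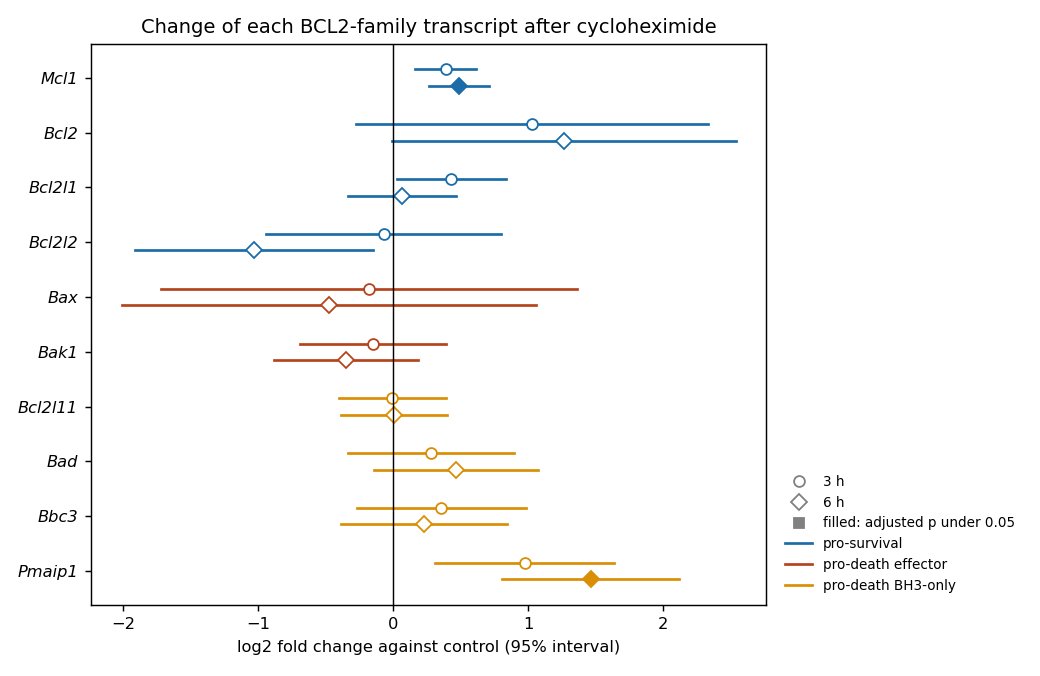
Log2 fold change of each transcript against control at 3 h (circles) and 6 h (diamonds), with 95% intervals from the edgeR fit over 6 libraries. Filled symbols mark an adjusted p under 0.05, which only Mcl1 and Pmaip1 at 6 h reached; the intervals of Bax and Bcl2 are the widest.

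Among the pro-survival genes, Mcl1 held 606 and 675 CPM in control, 842 and 833 CPM at 3 h, and 870 and 925 CPM at 6 h. Both libraries at each treatment time were above both controls. The mean rose from 640 ± 48.5 CPM to 897 ± 38.4 CPM at 6 h (SD, n = 2). This was 1.40-fold, or 0.49 ± 0.10 on the log2 scale (SE), with a 95% interval of 1.20 to 1.64 (edgeR adjusted p = 0.00849). At 3 h the mean was 838 ± 6.84 CPM (SD, n = 2) and the log2 difference 0.39 ± 0.10 (SE), with an adjusted p of 0.0610 in edgeR and 0.0206 in DESeq2. Between 3 h and 6 h the 95% interval of the fold was 0.917 to 1.25 (edgeR adjusted p = 0.648).

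The call of Mcl1 at 6 h was lost without the second library at 6 h (edgeR adjusted p = 0.0623), where the log2 difference was 0.44. Mcl1 transcripts made up 87.8% and 91.7% of the summed CPM of the 4 pro-survival genes in control and 91.7% and 92.9% at 6 h, which overlap in part. The gene occupies chr3:95658788-95663176 on the plus strand of GRCm38 (ENSMUSG00000038612.16), with 3 exons in its principal transcript.

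Bcl2l1, whose main product BCL-xL guards the mitochondrial membrane, held 79.2 and 55.6 CPM in control, 86.9 and 95.4 CPM at 3 h, and 74.9 and 66.5 CPM at 6 h. Its 3 h libraries were the highest, and those of 6 h fell between the controls. The log2 difference was 0.43 ± 0.18 (SE) at 3 h (edgeR adjusted p = 0.176) and 0.06 ± 0.18 (SE) at 6 h (edgeR adjusted p = 0.818). The 6 h interval of 0.792 to 1.38-fold leaves room for a moderate change in either direction. The 3 h difference was 0.71 without the first control library, where it passed the threshold (edgeR adjusted p = 0.0360), and 0.20 without the second (edgeR adjusted p = 0.486). From 3 h to 6 h the log2 difference was -0.37 ± 0.17 (SE), which did not pass (edgeR adjusted p = 0.311).

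Bcl2, the founding member of the family, was near the limit of detection, with 8 and 11 counts in the control libraries, 31 in each library of 3 h, and 76 and 51 in those of 6 h. These correspond to 0.592 and 1.34 CPM in control, a mean of 1.90 ± 0.149 CPM at 3 h (SD, n = 2), and 2.51 and 1.95 CPM at 6 h. Every treated library was above every control, but the exact 95% Poisson interval of the second control library, 0.671 to 2.40 CPM, which covers counting error only, took in the 3 h mean. The log2 difference was 1.03 ± 0.57 (SE) at 3 h and 1.26 ± 0.56 (SE) at 6 h (edgeR adjusted p = 0.302 and 0.124). At 6 h the 95% interval ran from 0.992 to 5.81-fold. Without the first control library the log2 difference was 0.49 at 3 h and 0.73 at 6 h, and without the second it was 1.67 and 1.91, none of which passed in edgeR.

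Bcl2l2, which encodes BCL-w, held 4.15 and 4.03 CPM in control, 4.39 and 3.41 CPM at 3 h, and 1.55 and 2.45 CPM at 6 h, from 33 to 68 counts per library. The 6 h libraries lay below all others. The log2 difference at 6 h was -1.03 ± 0.39 (SE) against control (edgeR adjusted p = 0.0764) and -0.96 ± 0.38 (SE) against 3 h (edgeR adjusted p = 0.227). It was the only pro-survival gene with a negative estimate at 6 h. A protein-coding model, Gm20521, shares 13.3% of its merged exon length on the same strand, and how shared reads were counted is not stated.

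Among the effectors, Bax differed more between the libraries of a group than between groups. It held 78.1 and 28.8 CPM in control, 73.2 and 22.3 CPM at 3 h, and 59.4 and 17.9 CPM at 6 h, so the first library of each group was at least 2-fold above the second. On the log2 scale the first library exceeded the second by 1.43 in control, 1.71 at 3 h and 1.73 at 6 h. Within either replicate number the order was control, 3 h, 6 h from high to low. Against this spread the log2 difference was -0.18 ± 0.68 (SE) at 3 h and -0.48 ± 0.67 (SE) at 6 h (edgeR adjusted p = 0.900 and 0.630), and the 6 h interval of 0.247 to 2.08-fold was too wide to show a moderate change. Leaving out single libraries gave 6 h values from -1.59 to 0.42. With no filter on low counts the 6 h value was -0.47 and passed the threshold (edgeR adjusted p = 0.0350).

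The Bax split was unusual among the genes tested. Ranked by the smallest of the 3 differences between first and second libraries with the same sign, Bax was number 8 of 12755 genes. Only 3 of the 5472 genes with a mean of at least 20 CPM differed 2-fold or more in the same direction in all 3 groups: Bax, Fxr2 and Pdia3, the latter 2 named after their values were seen. Bax lies at chr7:45461697-45466898 on the minus strand of GRCm38 (ENSMUSG00000003873.11), and a protein-coding model on the same strand, Gm45808, shares 12.2% of its merged exon length.

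**Figure D3:**
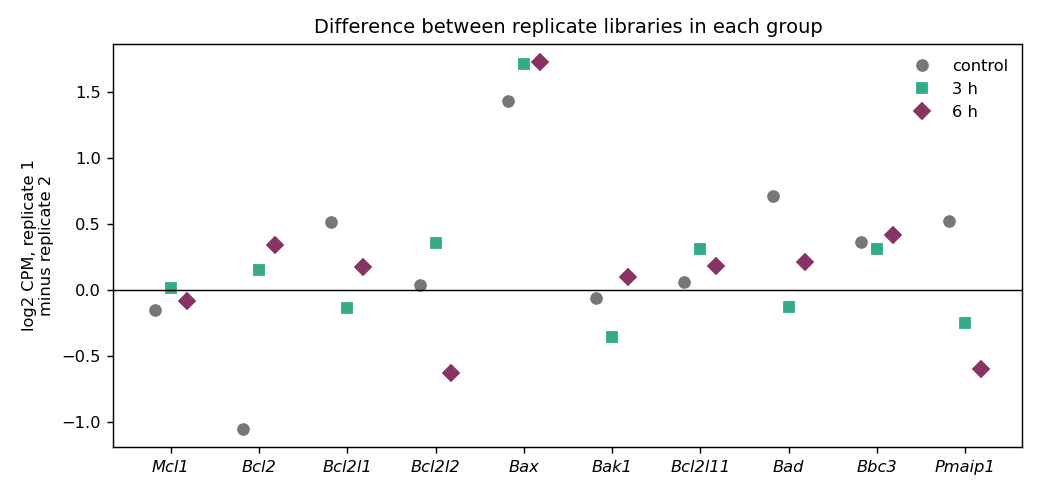
Difference in log2 CPM between the first and second library of each group for the 10 transcripts; 0 means equal levels. Bax lies between 1.43 and 1.73 in all 3 groups; of the other transcripts only Bcl2l11 and Bbc3 keep 1 sign throughout, with differences of up to 0.41.

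Bak1, the other effector, held 8.66 and 9.04 CPM in control, 6.97 and 8.95 CPM at 3 h, and 7.19 and 6.70 CPM at 6 h. The 6 h libraries lay below both controls, while those of 3 h overlapped them. The log2 difference was -0.15 ± 0.24 (SE) at 3 h and -0.35 ± 0.23 (SE) at 6 h (edgeR adjusted p = 0.742 and 0.299), with a 6 h interval of 0.543 to 1.14-fold. Scaling by library size alone gave 0.01 at 6 h. Ggnbp1, on the opposite strand, overlaps its exons and held 0.733 to 2.81 CPM; the counting is not stated to use strand.

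Pmaip1, which encodes NOXA, was the BH3-only transcript that moved most. The control libraries held 86 and 36 counts, those of 3 h 152 and 202, and those of 6 h 364 and 475. These were 6.37 and 4.40 CPM in control, 9.81 and 11.7 CPM at 3 h, and 12.0 and 18.2 CPM at 6 h, so the 3 groups did not overlap. The mean rose from 5.38 ± 1.39 CPM to 15.1 ± 4.38 CPM at 6 h (SD, n = 2). This was 2.76-fold, or 1.46 ± 0.29 on the log2 scale (SE), with a 95% interval of 1.75 to 4.34 (edgeR adjusted p = 0.00763).

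At 3 h the mean of Pmaip1 was 10.7 ± 1.31 CPM (SD, n = 2), and the log2 difference of 0.97 ± 0.29 (SE) had an edgeR adjusted p of 0.0890; it passed with library size alone (0.0399) and with no filter (0.00717). From 3 h to 6 h the log2 difference was 0.49 ± 0.27 (SE; edgeR adjusted p = 0.373). Without the second library at 6 h the call at 6 h was lost (edgeR adjusted p = 0.0624), where the log2 difference was 1.14. Per kilobase of transcript the mean of Pmaip1 moved from 1.97 to 5.54 CPM. At 6 h this was above the means of Bbc3 (4.27) and Bcl2l11 (4.29) and below that of Bad (7.34). In the first library at 6 h, however, Pmaip1 was below both Bbc3 and Bcl2l11 per kilobase. By CPM its 6 h mean of 15.1 was below that of Bcl2l11 (21.6) and above that of Bad (10.7).

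Bcl2l11, encoding BIM, had the smallest estimates at 3 h and 6 h against control. It held 21.9 and 21.0 CPM in control, 23.7 and 19.1 CPM at 3 h, and 23.0 and 20.2 CPM at 6 h, with overlap between all groups. Its log2 difference was -0.01 ± 0.17 (SE) at 3 h and 0.01 ± 0.17 (SE) at 6 h (edgeR adjusted p = 0.987 and 0.976), and the intervals of 0.756 to 1.31-fold and 0.766 to 1.32-fold allow changes of up to about that size. With library size alone the 6 h value was 0.36 and did not pass (edgeR adjusted p = 0.129).

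Bbc3, which encodes PUMA, a p53-inducible BH3-only protein, held 7.41 and 5.74 CPM in control, 9.43 and 7.56 CPM at 3 h, and 8.87 and 6.63 CPM at 6 h. The 3 h libraries were above the controls by a narrow margin and those of 6 h overlapped them. The log2 difference was 0.36 ± 0.27 (SE) at 3 h and 0.23 ± 0.27 (SE) at 6 h (edgeR adjusted p = 0.457 and 0.565).

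Bad, a BH3-only gene whose product is held inactive by phosphorylation, held 9.48 and 5.74 CPM in control, 8.97 and 9.82 CPM at 3 h, and 11.4 and 9.88 CPM at 6 h. The 6 h libraries were above both controls. The log2 difference at 6 h was 0.46 ± 0.27 (SE; edgeR adjusted p = 0.224), and it was 0.89 without the first control library (edgeR adjusted p = 0.0430) but 0.17 without the second (edgeR adjusted p = 0.645). Scaled by library size alone, Bad rose by 0.82 (edgeR adjusted p = 0.0458). Gpr137, on the opposite strand, shares 20.5% of the merged exon length of Bad and held 12.2 to 22.5 CPM, so part of the reads could belong to either gene.

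Pro-survival and pro-death transcripts were then set against each other within each library, as the mean log2 CPM of the 4 pro-survival genes minus that of the 6 pro-death genes. A common scaling factor cancels in this difference. The control libraries stood at 0.49 and 1.16, the 3 h libraries at 0.96 and 1.13 and the 6 h libraries at 0.60 and 0.99, and the 3 groups overlapped. The mean changed by 0.22 at 3 h and by -0.03 at 6 h, against a spread between libraries (the SDs of the groups combined) of 0.49 and 0.55. The shift from control was thus smaller than the spread at both times, and no p is given for a score over chosen genes.

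The difference depended on which genes of either class were used. Without Bcl2 the change from control was 0.0381 at 3 h and -0.37 at 6 h. Without Bcl2l2 it was 0.39 at 3 h and 0.37 at 6 h. Against Bax and Bak1 alone the control libraries stood at -0.43 and 0.42, those of 3 h at 0.34 and 0.92 and those of 6 h at 0.15 and 1.11, following the Bax split. Against the 4 BH3-only genes the control libraries stood at 0.95 and 1.53, those of 3 h at 1.27 and 1.24 and those of 6 h, the lowest, at 0.82 and 0.92. For Mcl1 alone against Pmaip1 the log2 difference in CPM ran from 6.55 and 7.23 (control) through 6.41 and 6.14 (3 h) to 6.17 and 5.66 (6 h); both libraries at each treatment time were below both controls. This pair was picked because it held the 2 transcripts called at 6 h, so the narrowing restates their fold changes.

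**Figure D4:**
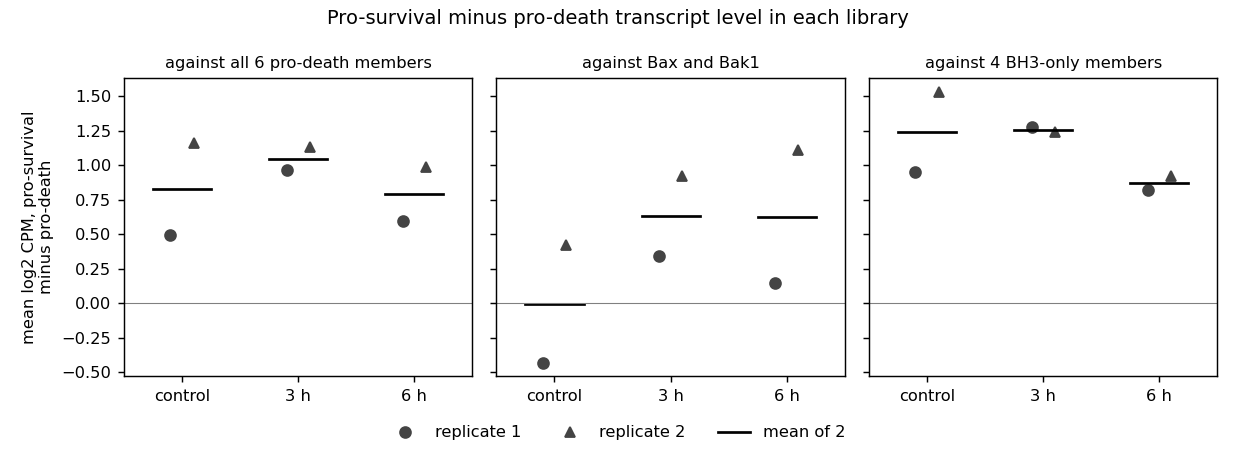
Mean log2 CPM of the 4 pro-survival transcripts minus that of all 6 pro-death transcripts, of Bax and Bak1, or of the 4 BH3-only transcripts, for each library. The groups overlap in the first 2 panels, and in the third the 6 h libraries, at 0.82 and 0.92, lie below both controls.

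A feature that the choice of genes did not use was the AU-rich pentamer ATTTA, which is found in the 3′ untranslated regions of many short-lived messages. In the principal GENCODE transcripts Bcl2 held 15 pentamers, Mcl1 8, Bcl2l11 6, Bcl2l2 4, Pmaip1 4 and Bcl2l1 1, while Bax, Bak1, Bad and Bbc3 held 0. Each of the 4 pro-survival transcripts thus carried at least 1, against 2 of the 6 pro-death transcripts. The members also differed in the length of this region. It was 165 to 1121 bases in Bax, Bak1, Bad and Bbc3 and 1473 to 5086 bases in the others. Of 11478 tested genes with such a region 32.4% held 0, with a median length of 370 bases, and 16.0% held over 5, with a median length of 3243 bases. The median log2 difference at 6 h was -0.08 for those with 0 and 0.18 for those with over 5, so the 2 classes differed in length as well as in change.

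Sites from Mcl1 and Bcl2 are shown because these were the transcripts with the most pentamers. The sites printed are only a part of the 8 in Mcl1 and the 15 in Bcl2, and need not be typical of either region. Each is 29 bases of the sense strand with the pentamer in capitals, named by its position from the start of the 3′ untranslated region. The Bcl2 site at 253 sits within a longer match to TTATTTATT, a nonamer that 7.62% of the tested genes held and that the Mcl1 region lacked.
Mcl1 71: gaaaacatgtgtATTTAtgaaggtggact
Mcl1 1767: ttgtacctgtgtATTTAtccttgatcata
Mcl1 1792: catagtttgcttATTTAtgtttaactctt
Bcl2 253: aaaaaaagatttATTTAtttaagacagtt

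Of 15 further BCL2-family genes listed, 9 were tested. At 6 h 1 was higher and 1 lower, where 29.0% of all genes were called, with a list median log2 difference of -0.12 beside 0.04 over all genes. Bmf, a BH3-only gene, rose by 1.39 ± 0.39 on the log2 scale (SE; edgeR adjusted p = 0.0289), from 2.44 and 1.34 CPM in control to 6.00 and 4.25 CPM at 6 h. Hrk, another BH3-only gene, had a log2 fold change of -1.45 ± 0.39 (SE; edgeR adjusted p = 0.0247), from 5.04 and 3.54 CPM to 1.55 and 1.61 CPM. At 3 h neither passed the threshold, with edgeR adjusted p-values of 0.136 for Bmf and 0.879 for Hrk.

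Downstream of the mitochondrial step, 14 of 15 listed genes of the apoptosome, the caspases, released mitochondrial factors and the VDAC channels were tested. At 6 h 1 was higher and 7 were lower, with a list median of -0.44 on the log2 scale; at 3 h 1 was higher and 1 lower. Of all genes 14.8% were higher and 14.3% lower at 6 h, and 3.60% and 1.30% at 3 h. Casp2, an initiator caspase, rose from 32.7 and 32.0 CPM in control to 92.8 and 83.1 CPM at 3 h and 82.0 and 82.0 CPM at 6 h. Its log2 fold change was 1.44 ± 0.13 (SE) at 3 h and 1.34 ± 0.13 (SE) at 6 h (edgeR adjusted p = 0.000780 and 0.000432), and the treated libraries were all at least 2-fold above the controls.

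Cycs, which encodes cytochrome c, had a log2 fold change of -0.45 ± 0.10 (SE) at 3 h and -0.65 ± 0.10 (SE) at 6 h (edgeR adjusted p = 0.0400 and 0.00288). The other 6 that fell at 6 h were Vdac1 (-0.81), Casp6 (-0.74), Diablo (-0.70), Aifm1 (-0.60), Vdac2 (-0.51) and Vdac3 (-0.45 on the log2 scale). Cycs transcripts fell in level from 1128 and 1242 CPM in control to 726 and 781 CPM at 6 h.

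Of 8 listed inhibitor-of-apoptosis genes 6 were tested, and 1 was called at 6 h, where 29.0% of all genes were called. Birc2, encoding cIAP1, rose by 0.69 ± 0.20 on the log2 scale (SE; edgeR adjusted p = 0.0325), from 9.33 and 8.91 CPM in control to 13.2 and 16.3 CPM at 6 h. Among 6 tested regulators of MCL1 protein turnover March5, a mitochondrial ubiquitin ligase, had a log2 fold change of -0.83 ± 0.12 (SE) at 6 h (edgeR adjusted p = 0.00264). It held 199 and 221 CPM in control and 113 and 123 CPM at 6 h. March5 was the 1 gene of that list called at 6 h, beside the same 29.0% of all genes.

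Of 10 transcription factors known to act on BH3-only genes 8 were tested; 3 were higher at 3 h (3.60% of all genes), and 4 were higher and 1 lower at 6 h (14.8% and 14.3% of all genes). The gene for p53, Trp53, held 934 and 932 CPM in control and 842 and 792 CPM at 6 h. The log2 difference of -0.19 ± 0.10 (SE) did not pass (edgeR adjusted p = 0.193). Trp53 was named after its values were seen, as the gene for a known activator of Bax, Bbc3 and Pmaip1, whose activity was not measured. Its relative Trp73 rose at 6 h from 3 and 7 counts in control to 159 and 103 counts, a log2 fold change of 3.23 ± 0.64 (SE; edgeR adjusted p = 0.00763). Ddit3, encoding the stress factor CHOP, rose by 1.54 ± 0.33 at 3 h and by 1.38 ± 0.33 at 6 h on the log2 scale (SE; edgeR adjusted p = 0.0379 and 0.0158). Atf4 and Jun were higher at both times, and Myc was lower at 6 h.

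The genes with the pattern most like Mcl1 and Bax over the 6 libraries, by Pearson's r of log2 CPM among 5319 other genes of at least 20 CPM, were named as a description. For Mcl1 they were Chd6 (r = 0.997), Ubr2 (r = 0.996) and Svil (r = 0.993). Chd6 held 25.3 and 33.1 CPM in control, 53.0 and 56.9 CPM at 3 h, and 61.0 and 69.5 CPM at 6 h. For Bax they were Swi5 (r = 0.996), Anxa6 (r = 0.987) and Hmox1 (r = 0.982). Swi5 held 128 and 67.3 CPM in control, 114 and 59.8 CPM at 3 h, and 102 and 48.1 CPM at 6 h, and thus divided by replicate number as Bax did. The 6 libraries fall into 3 groups and are not independent points, so no p is given.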

How the data were processed

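The authors deposited raw counts per gene, 1 file per library, as whole numbers. Per the labels' protocols, TRIzol was used to extract the RNA, and polyA libraries with a barcode for each sample were pooled for sequencing; the submitters' processing notes name the build mm10. The aligner, counting program, strandedness, annotation and any use of molecular identifiers are not given in the sources used here.

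The counts were analysed with edgeR 4.0.16 in R 4.3.3. Genes were kept by filterByExpr (minimum count 10, minimum total 15), which left 12755, and libraries were scaled by TMM. A quasi-likelihood model with a mean per group was fitted to all 6 libraries (3 residual degrees of freedom), and two-sided p-values were adjusted by Benjamini-Hochberg over all genes of a comparison, with calls at an adjusted p under 0.05. SEs were derived from log2 fold change and F statistic, and 95% intervals from these. The fit was tested on simulated data. Log2 CPM used a prior count of 2. Replicate libraries differed beyond counting noise (chi-square per degree of freedom 18.7 to 27.7). Members, lists and rules were chosen with earlier results of these data known. Named were all members, the pathway genes called against control (Trp53 was added after its values were seen), and, as most alike, 3 genes each for the most abundant pro-survival and pro-death member. Gene models came from GENCODE M21 (GRCm38) and upstream sequences from RefSeq (GRCm38.p6, 9 of 10 members). DESeq2 1.42.0, limma 3.58.1 and the other alternatives are given in the closing section.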

Additional observations from a re-analysis of the deposited data

How the results depend on the processing

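The number of members called at 3 h was 0 and became 1 with DESeq2, robust empirical Bayes or a minimum count of 50, and 2 with library size alone, no filter or an adjusted p under 0.10; leaving out single libraries gave 0 to 1. At 6 h it was 2 and became 3 with library size alone (Bad added), no filter (Bax added) or an adjusted p under 0.10, while leaving out single libraries gave 0 to 3; between the times it was 0 in every alternative run. Mcl1 and Pmaip1 at 6 h were each called in 15 of 16 alternatives, with log2 fold changes of 0.41 to 0.84 and 1.14 to 1.82 and adjusted p from 0.000194 to 0.0623 and from 1.19e-06 to 0.0624. Mcl1 at 3 h was called in 5 of 16. Bcl2 was not tested with a minimum count of 50.

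Over all genes, calls at 3 h moved from 625 to 1373 with library size alone, 1447 with DESeq2, 1816 with no filter, 218 with only the libraries compared, and 108 to 1033 without single libraries. At 6 h they moved from 3704 to 1313 to 3578 without single libraries. Between the times they moved from 209 to 688 with DESeq2, 508 with limma-voom, 1063 with no filter, 126 with the replicate block, 563 with only the libraries compared and 14 to 595 without single libraries.

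The change in pro-survival minus pro-death level at 3 h was 0.22, and -0.14 by the median over members and -0.11 to 0.56 without single libraries. At 6 h it was -0.03, and -0.93 by the median over members, 0.63 against effectors only, 0.46 as a ratio of summed CPM, 0.37 without Bcl2l2, 0.0252 without Bad, 0.21 without Pmaip1 and -0.37 to 0.30 without single libraries.

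Members that were not called changed sign as follows. With library size alone the 3 h values were 0.15 for Bcl2l2, 0.0386 for Bax, 0.0789 for Bak1 and 0.22 for Bcl2l11, and the 6 h value of Bak1 was 0.00826. Bcl2l11 was 0.00135 at 3 h with a minimum count of 50, and -0.00843 with relative log expression scaling and -0.00846 with DESeq2 at 6 h. Without single libraries the 3 h values ran from -0.27 to 0.10 for Bcl2l2, -1.28 to 0.72 for Bax, -0.34 to 0.0151 for Bak1, -0.17 to 0.14 for Bcl2l11 and -0.0113 to 0.71 for Bad. At 6 h they ran from -0.16 to 0.35 for Bcl2l1, -1.59 to 0.42 for Bax, -0.0888 to 0.0981 for Bcl2l11 and -0.000436 to 0.43 for Bbc3. Between the times they ran from -1.41 to 0.80 for Bax, -0.13 to 0.18 for Bcl2l11 and -0.36 to 0.0649 for Bbc3. The causes were not tested.

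Same-numbered libraries did not deviate together over all genes (r = 0.0942 for control and 3 h, -0.0243 for control and 6 h, 0.0172 for 3 h and 6 h; over genes of at least 5 CPM 0.174, -0.0387 and 0.0256), so the numbers were not treated as pairing. With the replicate block 3 members were called at 6 h, the added 1 being Bax, with a log2 fold change of -0.53 (edgeR adjusted p = 0.0310). Depth limits Bcl2 and Bcl2l2 most, at 8 to 76 and 33 to 68 counts per library.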

Other observations

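Of the genes with at least 20 CPM on average, Pdia3 and Fxr2 shared the split of Bax by replicate number. Pdia3, an endoplasmic reticulum disulfide isomerase gene, held 85.8 and 29.3 CPM in control, 67.5 and 26.9 CPM at 3 h, and 58.8 and 28.7 CPM at 6 h. Fxr2, a relative of the fragile X RNA-binding gene, held 35.3 and 17.0 CPM in control, 47.9 and 23.7 CPM at 3 h, and 54.4 and 22.6 CPM at 6 h. Over all 12755 tested genes, 18 were at least 2-fold higher in the first library of all 3 groups and 16 in the second. These genes were named after their values were seen, and what separates the libraries was not tested.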
